A study of Mus musculus with 9 samples.

Results

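A set of 9 transcription factor genes of the neural lineage was followed in mouse embryonic fibroblasts (MEFs), connective tissue cells grown from embryos: Neurog1, Neurog2, Neurod1, Olig1, Olig2, Pax6, Sox1, Pou3f2 and Myt1l. They were chosen by name as factors that specify neural progenitors, neurons or oligodendrocytes, and they make up 9 of the 21938 protein-coding genes annotated in GENCODE M21 on mm10. ATAC-seq, where a transposase puts adapters into exposed DNA, was the assay of chromatin accessibility, and the files hold the accessibility peaks of each group. Peaks were compared between 4 lists. The WT list stood for 3 libraries of primary MEFs from wild type embryos, and the Anp32e null list for 3 libraries of primary MEFs from Anp32e-/- embryos, which lack the histone chaperone that takes the variant histone H2A.Z out of nucleosomes. The other two lists came from Anp32e null MEFs as well. NT siRNA was 1 library of null cells transfected with a non-targeting pool, and H2A.Z siRNA stood for 2 libraries of null cells transfected with a pool of siRNAs against H2A.Z, so the knockdown had no counterpart in WT cells and was compared with NT siRNA alone. Each group has 1 list and no replicate value, so no test between groups could be made, and the counts of the factors and their sites are read beside the shares over all protein-coding genes or all sites. Peak lists check neither the Anp32e deletion nor the H2A.Z knockdown.

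Proneural factors such as the neurogenins and NEUROD1 are basic helix-loop-helix (bHLH) proteins that bind E-box DNA and drive progenitors to become neurons, while OLIG1 and OLIG2 are bHLH factors of the oligodendrocyte and motor neuron lineages. PAX6 and SOX1 mark and maintain neural progenitors. POU3F2 (BRN2) and MYT1L are neuronal factors that are used in mixtures of factors to turn fibroblasts into neurons, and MYT1L is known to repress non-neuronal genes. In cells outside the nervous system, genes of this kind are commonly held silent by Polycomb complexes or by the repressor REST, and many of them lie in CpG-rich DNA.

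A TSS peak is used here for a peak that overlaps the window of 1 kb on either side of an annotated transcription start site of the gene, and a gene region for the gene body with 10 kb on either side. A gene without a peak was not called accessible at the depth of that list, which does not show that its chromatin is closed in every cell. The lowest summit pileup that was called stood at 2.15 times the genome-wide background in WT and 2.54 times in null, 2.83 times with NT siRNA and 1.8 times with H2A.Z siRNA, so H2A.Z siRNA was the deepest list and NT siRNA the shallowest.

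Sequences are shown for the places on which the results turn, in mm10 and on the strand of the gene. The first set holds the 150 bases before the gene start of the genes whose start carried no peak in WT and had a CpG content above the median of all genes, with CG dinucleotides in capitals.
Neurod1, upstream (chr2:79456752-79456901, minus strand): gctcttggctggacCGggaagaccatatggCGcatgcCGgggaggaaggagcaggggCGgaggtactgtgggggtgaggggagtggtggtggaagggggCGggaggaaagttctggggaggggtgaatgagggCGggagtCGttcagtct
Sox1, upstream (chr8:12395145-12395294, plus strand): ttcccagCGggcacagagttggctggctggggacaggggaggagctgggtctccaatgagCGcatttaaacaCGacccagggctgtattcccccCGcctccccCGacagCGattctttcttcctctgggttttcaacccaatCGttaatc
Olig2, upstream (chr16:91225307-91225456, plus strand): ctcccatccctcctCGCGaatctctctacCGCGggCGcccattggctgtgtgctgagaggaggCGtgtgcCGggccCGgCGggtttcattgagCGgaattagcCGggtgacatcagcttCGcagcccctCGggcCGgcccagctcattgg

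The second set holds the 151 bases centred on peak summits that were found in all 4 lists, in the coding sequence of Neurog2, Neurod1 and Sox1 and in an intron of Myt1l. Capitals mark the E-box words CAGATG and CAGCTG and the word GGAATG on either strand, and in Myt1l also the core of the CTCF motif, within which one of the CAGATG words lies.
Neurog2, summit (chr3:127634153-127634303, plus strand): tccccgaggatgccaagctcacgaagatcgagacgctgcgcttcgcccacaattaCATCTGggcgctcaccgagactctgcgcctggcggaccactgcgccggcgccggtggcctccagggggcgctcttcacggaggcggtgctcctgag
Neurod1, summit (chr2:79454289-79454439, minus strand): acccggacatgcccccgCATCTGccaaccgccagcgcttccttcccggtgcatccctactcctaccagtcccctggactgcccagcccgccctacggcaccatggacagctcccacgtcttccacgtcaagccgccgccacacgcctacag
Sox1, summit (chr8:12396926-12397076, plus strand): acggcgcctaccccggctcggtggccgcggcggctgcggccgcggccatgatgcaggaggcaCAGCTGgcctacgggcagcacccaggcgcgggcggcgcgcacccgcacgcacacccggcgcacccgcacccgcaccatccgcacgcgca
Myt1l, summit (chr12:29907196-29907346, plus strand): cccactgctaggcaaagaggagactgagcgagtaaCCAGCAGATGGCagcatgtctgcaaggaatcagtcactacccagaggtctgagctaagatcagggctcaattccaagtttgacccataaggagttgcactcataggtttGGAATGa

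To ask which of the factors are closed in fibroblasts, TSS peaks were counted in each list. In WT, 6 of the 9 genes had a TSS peak, against 67.2% of all protein-coding genes. The same 6 genes, Neurog1, Neurog2, Pax6, Olig1, Pou3f2 and Myt1l, had one in null and in NT siRNA, where the share of all genes was 66.7% and 66.8%. In H2A.Z siRNA 7 genes had one, against 68.4%, the additional gene being Olig2. Neurod1 and Sox1 had no TSS peak in any list. The share of the factors with a TSS peak therefore lay near that of all genes in every list.

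Every one of the 9 factors had at least 1 peak in its gene region in each list, against 81.1% of protein-coding genes in WT and 80.3% in null, 79.3% with NT siRNA and 80.3% with H2A.Z siRNA. The regions together held 34 peaks in WT and 32 in null, 24 with NT siRNA and 26 with H2A.Z siRNA. Over the 627.5 kb of the regions this came to 5.42, 5.10, 3.82 and 4.14 peaks per 100 kb, where the regions of all protein-coding genes held 5.12, 5.06, 5.64 and 6.89. Without Myt1l, whose gene alone spans 394830 bp, the density was 11.8, 11.3, 7.52 and 8.93 per 100 kb. The other factor genes span 1686 to 28465 bp, and no density was computed for protein-coding genes of such lengths. The values without Myt1l therefore have no like value to be read beside. The peaks were weaker than the usual peak of their list. Ranked by fold enrichment within the list, their median percentile was 35.2 in WT and 31.7 in null, 31.5 with NT siRNA and 43.6 with H2A.Z siRNA, where the peaks in the gene regions of all protein-coding genes had 50.6, 50.3, 49.8 and 49.0. At start sites the gap was wider. The strongest TSS peak of the factors that had one stood at a median percentile of 53.4, 45.3, 43.5 and 47.6, and that of all protein-coding genes with a TSS peak at 81.7, 80, 79.5 and 81.5. A low rank at start sites was not particular to the 9 factors. It was 60.6, 52.0, 43.1 and 54.7 for 40 further neural transcription factors, and 59.9, 49.7, 48.2 and 62.6 for 10 fibroblast markers, both described below.

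**Figure D1:**
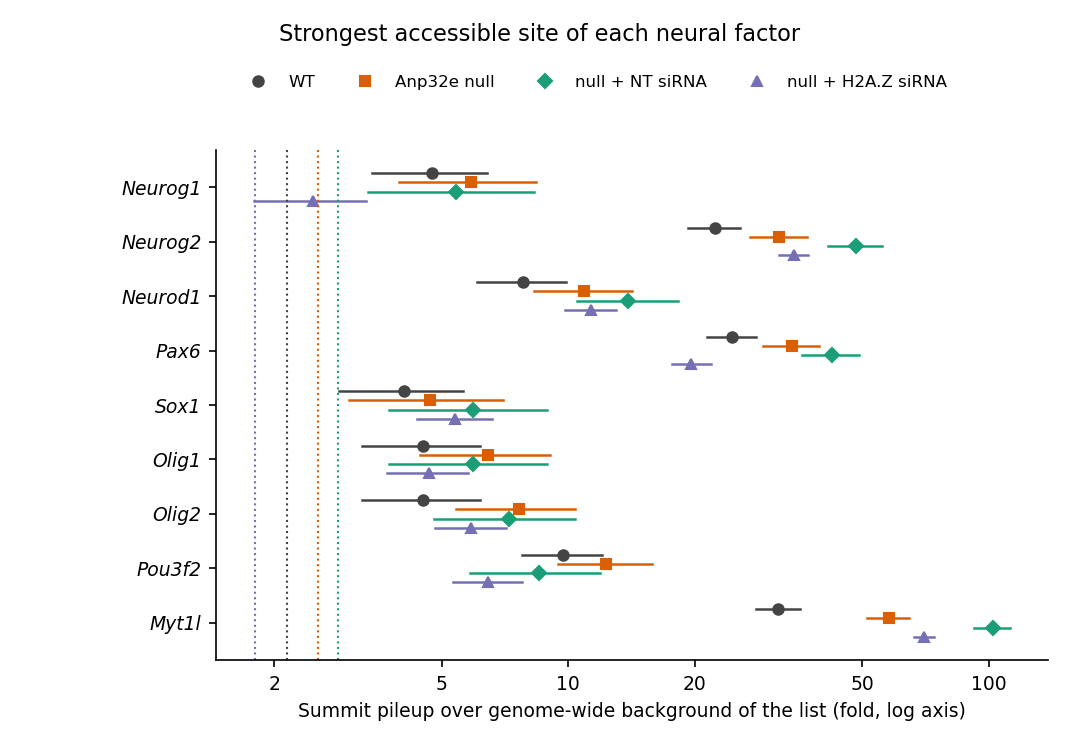
Summit pileup over the genome-wide background of the list (log axis) at the strongest site of each factor, with points for the 4 lists, bars for exact 95% Poisson intervals that cover counting error only, and dotted lines for the lowest pileup called in each list. Neurog2, Pax6 and Myt1l lie above 19 times background in every list, and Neurog1 in H2A.Z siRNA lies nearest to the lowest pileup called.

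Neurog2 was the most accessible of the proneural genes. The gene lies at chr3:127633135-127635631 on the plus strand, and its main peak began 5 to 78 bp downstream of the gene start and had its summit in the coding sequence, 1048 to 1093 bp downstream. At the summit 197 fragments overlapped in WT and 162 in null, 187 with NT siRNA and 613 with H2A.Z siRNA. Divided by the background of each list to set depths on one scale, the pileup was 22.3 times background in WT (95% interval 19.3 to 25.6) and 31.7 in null (27.0 to 36.9), 48.2 with NT siRNA (41.5 to 55.6) and 34.4 with H2A.Z siRNA (31.7 to 37.2). It ranked at percentile 85.6, 76.3, 88.8 and 85.9 of the peaks of those lists, so by rank Neurog2 was a strong site in all groups. The log2 ratio of null to WT was 0.51 (0.20 to 0.82), where the median of all sites shared by those lists was 0.59, and that of H2A.Z siRNA to NT siRNA was -0.49 (-0.73 to -0.24). Sites 7.6 kb upstream and 6.9 kb downstream of the gene start were also called in every list, at 8.25 to 12.4 and 3.82 to 5.28 times background. A site 4685 bp upstream was called after H2A.Z siRNA alone, at 4.55 times background and percentile 10.4.

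Neurog1, the related neurogenin at chr13:56250478-56252163 on the minus strand, had a weak peak in its coding sequence that reached the start or ended within 127 bp of it (chr13:56251291-56252393). The pileup was 42 fragments in WT and 30 in null, 21 with NT siRNA and 44 with H2A.Z siRNA, or 4.75, 5.86, 5.41 and 2.47 times background. The percentile was 40.3, 37.5, 25.5 and 10.9, lowest after H2A.Z siRNA. Between H2A.Z siRNA and NT siRNA the log2 ratio of the values over background was -1.13 (95% interval -1.91 to -0.31, counting error only), where the median of all 81659 sites shared by these lists was -0.27. That ratio stood at percentile 2.85 of the shared sites. With the lists cut to an equal number of peaks, or with pileups scaled to the shallowest list, Neurog1 had no TSS peak in H2A.Z siRNA. A second peak 8 kb upstream was present in WT alone, with 22 fragments at its summit.

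Neurod1 acts after the neurogenins in differentiating neurons. Its start at the end of chr2:79452521-79456751, on the minus strand, was without a peak, and the nearest peak edge lay 1996 bp away in WT and 2054 bp in null, 2071 bp with NT siRNA and 2022 bp with H2A.Z siRNA. That peak (chr2:79453910-79454755) had its summit in the Neurod1 coding sequence, 2381 to 2470 bp downstream of the start, in a stretch that introns of Cerkl and Gm26755 also cover, and a start of Gm26755 lies within 1 kb of it. It held 69 fragments in WT and 56 in null, 54 with NT siRNA and 202 with H2A.Z siRNA, which were 7.8, 10.9, 13.9 and 11.3 times background. With percentiles of 77.8, 75.9, 74.3 and 79.8, it ranked high in all groups, although the gene start was not called. Null cells had a further peak 2501 bp upstream of the start, with 18 fragments and at percentile 8.76, which no other list held.

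Olig1 and Olig2 are neighbours on chromosome 16. Olig1 (chr16:91269772-91271933, plus strand) had a single peak in its region, over the coding sequence with the summit 436 to 624 bp downstream of the start. The summit held 40 fragments in WT and 33 in null, 23 with NT siRNA and 83 with H2A.Z siRNA, or 4.52, 6.45, 5.93 and 4.66 times background. The intervals of the 4 values overlapped, and the peak ranked between percentile 30.3 and 41.2 in each list.

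Olig2 (chr16:91225457-91228677, plus strand) was the only factor whose TSS call differed between lists. Its peak had the summit in the coding sequence 1605 bp downstream of the start in WT and 1535 bp in null, 1673 bp with NT siRNA and 1501 bp with H2A.Z siRNA. In the first 3 lists the peak ended short of the window, with its edge 1017, 1026 and 1085 bp from the start. After H2A.Z siRNA the called peak was 2689 bp wide, against 1115 bp in WT, 1010 bp in null and 832 bp in NT siRNA, and it ran over the start (chr16:91224932-91227620). The summit held 40 fragments in WT and 39 in null, 28 with NT siRNA and 105 with H2A.Z siRNA, or 4.52, 7.62, 7.22 and 5.89 times background, and the log2 ratio of H2A.Z siRNA to NT siRNA was -0.29 (-0.91 to 0.36), at percentile 47.9 of the shared sites. By fold enrichment over the local background the order was different, with 2.46 in WT and 3.22 in null, 5.02 with NT siRNA and 5.15 with H2A.Z siRNA, and the percentile was 11.6, 16.8, 31.5 and 47.6. The list with the widest call was therefore highest by fold and rank, but not by pileup over the genome-wide background. H2A.Z siRNA had the deepest list, with a background of 17.8 fragments against 3.88 in NT siRNA and a median peak width over all peaks of 658 bp against 539 bp. With the lists cut to an equal number of peaks, or with pileups scaled to the shallowest list, Olig2 kept its TSS peak in H2A.Z siRNA and had none in NT siRNA. Peak edges stayed as deposited in both settings, so the part of depth in the wider call was not tested. With the summit in place of the peak edge required inside the window, neither Olig2 nor Neurog2 had a TSS peak in any list. Among all protein-coding genes, 2.06% had a TSS peak in H2A.Z siRNA and not in NT siRNA.

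Widening the window of 1 kb bears on these calls, while a window of 500 bp left the same factors called in each list. Just outside 1 kb lay Olig2 in WT, null and NT siRNA, followed by Sox1 at 1317 to 1457 bp. The nearest peak edge of Pax6 was 605 to 729 bp from the gene start, but its internal start sites kept its call with 500 bp. With a window of 2 kb all 9 factors had a TSS peak in WT and 8 in each other list, against 69.6%, 69%, 69.1% and 70.7% of protein-coding genes in WT, null, NT siRNA and H2A.Z siRNA. Olig2 and Sox1 were then called in every list and Neurod1 in WT alone.

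Pax6 (chr2:105668900-105697364, plus strand) has 24 annotated start sites. The first of them had a weak peak in the first part of the gene, with its summit 737 to 921 bp downstream and a pileup of 54, 38, 26 and 75 fragments in WT, null, NT siRNA and H2A.Z siRNA, or 6.11, 7.43, 6.70 and 4.21 times background. The strongest site of the gene (chr2:105675135-105676882) lay at internal start sites about 7.5 kb further on, within annotated untranslated exon sequence. Here 217 fragments were piled up in WT and 174 in null, 164 with NT siRNA and 349 with H2A.Z siRNA, and the values over background were 24.5 (21.4 to 28.0), 34.0 (29.1 to 39.5), 42.3 (36.0 to 49.2) and 19.6 (17.6 to 21.8). On this scale H2A.Z siRNA was the lowest of the 4 lists and NT siRNA the highest, and the intervals of these lists did not overlap. By rank within the list WT was highest, with percentiles of 88.5 in WT and 77.6 in null, 83.3 with NT siRNA and 71.0 with H2A.Z siRNA, which was again the lowest. Values over background were higher in NT siRNA than in null at 87.8% of all sites shared by those lists, with a median log2 ratio of 0.84, and the ratio at this site was 0.31 (-0.00341 to 0.63), at percentile 23.8. The log2 ratio of H2A.Z siRNA to NT siRNA was -1.11 (-1.38 to -0.83), at percentile 3.1 of all shared sites, while that of null to WT was 0.47 (0.18 to 0.77), at percentile 38.6.

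Pax6 had 8 sites in its region, of which 3 were called in all lists. A site near another internal start (chr2:105682548-105683467) was called in null and in H2A.Z siRNA but not in WT or NT siRNA, at 4.89 and 3.54 times background and percentiles 6.81 and 17.3. The upstream sites were weak as well. A peak near the start of the noncoding RNA gene Paupar was in WT alone at percentile 15.4, and another, 7054 bp upstream of Pax6, was in null alone at percentile 19.9.

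Sox1 (chr8:12395295-12400126, plus strand), an early marker of the neural plate, was the second gene with no TSS peak in any list. A peak in its coding sequence (chr8:12396612-12397805) had its summit 1703 to 1772 bp downstream of the start, and a start of the small gene Gm25239 lies within 1 kb of it. The pileup was 36 fragments in WT and 24 in null, 23 with NT siRNA and 96 with H2A.Z siRNA, or 4.07, 4.69, 5.93 and 5.39 times background. The intervals of the 4 values overlapped. A weak site near the start of the overlapping transcript Sox1ot was called in WT, null and NT siRNA with 22, 19 and 17 fragments and not after H2A.Z siRNA.

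Pou3f2 (chr4:22482780-22488366, minus strand) had peaks on both sides of its start. The one at the start had its summit in the coding sequence 214 to 255 bp downstream, and it held 53 fragments in WT and 50 in null, 23 with NT siRNA and 106 with H2A.Z siRNA, or 5.99, 9.77, 5.93 and 5.95 times background. The other, whose summit lay 1176 to 1567 bp upstream near the start of Gm30731, held 86, 63, 33 and 115 fragments, or 9.72, 12.3, 8.50 and 6.45 times background. Both ranked at or below percentile 56.4 in every list. A peak further into the coding sequence, about 1 kb from the start, was called in null at percentile 3.44 and in H2A.Z siRNA at percentile 15.2 and in neither of the lists they were compared with.

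**Figure D2:**
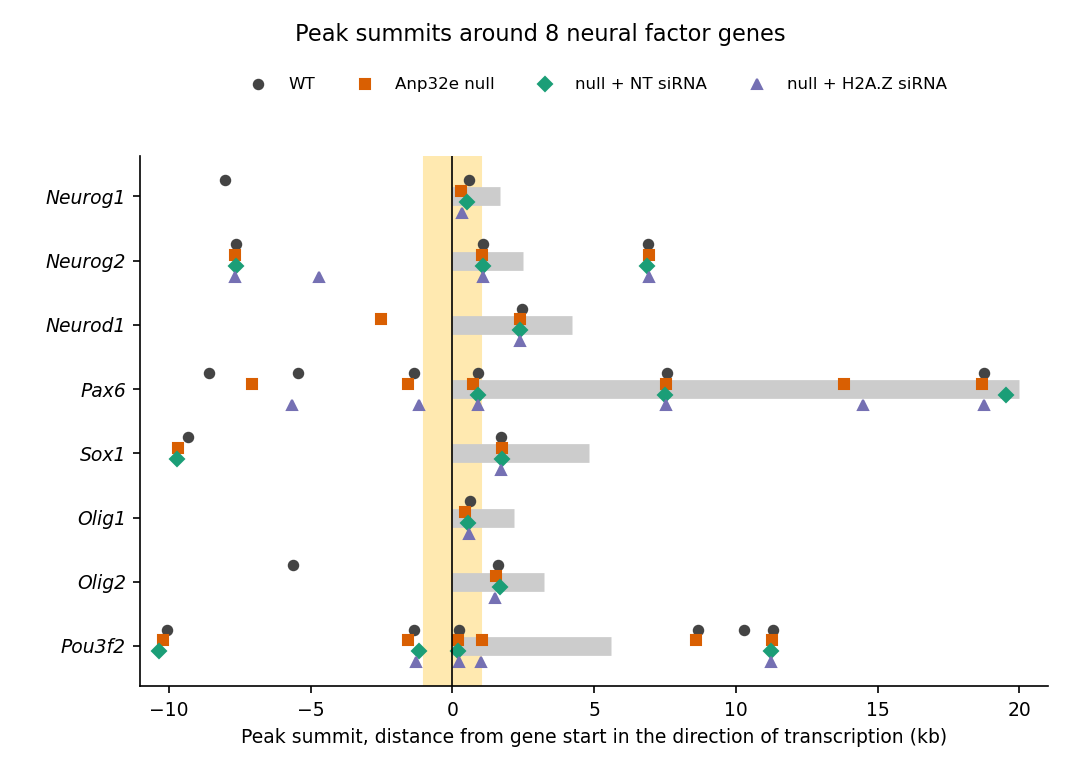
Positions of peak summits around 8 of the factors in each list, in kb from the gene start in the direction of transcription, with the gene body as a grey bar (Pax6 continues beyond the axis) and the window of 1 kb around the gene start shaded. The coding-sequence summits of Neurod1, Sox1 and Olig2 sit 1501 to 2470 bp downstream of the gene start in all 4 lists, and single symbols mark sites called in 1 list.

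Myt1l (chr12:29528384-29923213, plus strand) has 10 annotated start sites, and its 5' end lay in a long stretch with no peak. The nearest peak was 236933 to 237008 bp away in all 4 lists. The TSS call of Myt1l came from an internal start near the 3' end of the gene, where a peak (chr12:29894419-29895265) held 50 fragments in WT and 44 in null, 38 with NT siRNA and 149 with H2A.Z siRNA, or 5.65, 8.60, 9.79 and 8.36 times background. With the gene start alone taken as the promoter, 5 factors had a peak in WT, null and NT siRNA and 6 in H2A.Z siRNA, against 62.4%, 62.1%, 62.2% and 64.0% of protein-coding genes.

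The strongest peak near any of the factors was an intronic site of Myt1l (chr12:29906830-29907804), whose summit fell on the same base, 378887 bp from the gene start, in all 4 lists. It held 279 fragments in WT and 295 in null, 395 with NT siRNA and 1248 with H2A.Z siRNA, which were 31.5 (27.9 to 35.5), 57.7 (51.3 to 64.6), 102 (92 to 112) and 70.0 (66.2 to 74.0) times background. It ranked at percentile 95.9, 96.5, 99.0 and 97.8. The log2 ratio of null to WT was 0.87 (0.63 to 1.11), at percentile 76.1 of all shared sites, and that of H2A.Z siRNA to NT siRNA was -0.54 (-0.70 to -0.37), at percentile 24.4. A site beyond the 3' end of the gene (chr12:29932828-29933258) was called in null, NT siRNA and H2A.Z siRNA but not in WT, at 13.7, 13.4 and 15.8 times background. The local background there was high, at 16.9, 15.1 and 88.9 fragments, so its percentile was 31.6, 10.1 and 24.3.

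**Figure D3:**
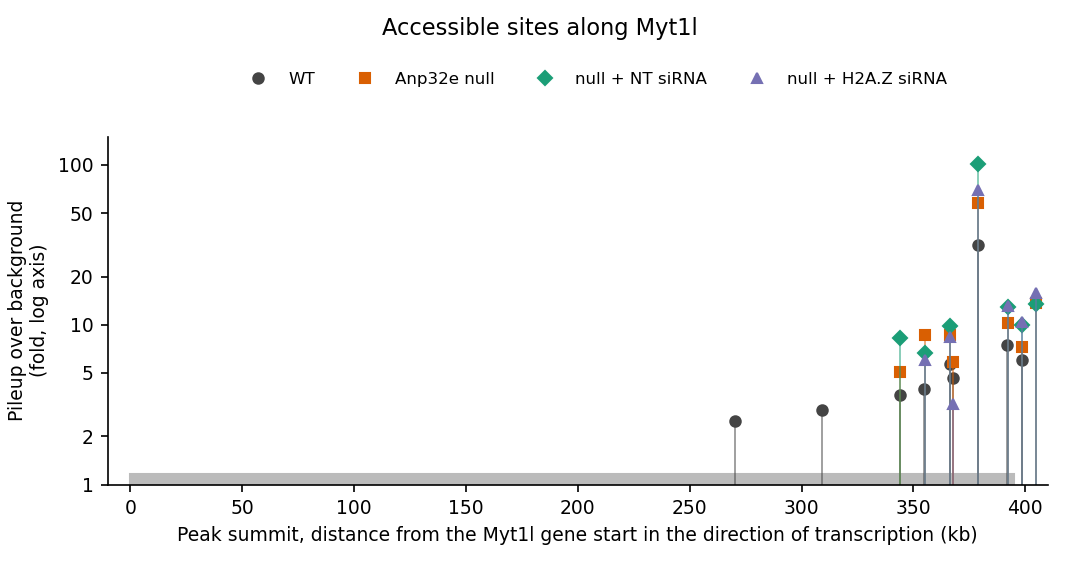
Pileup over background (log axis) at each peak summit along Myt1l, in kb from its gene start, with the gene body as a grey bar. The first part of the gene is empty in every list, all sites called in more than 1 list lie at least 344208 bp in, and the tallest symbols stand at the intronic site at percentile 95.9 to 99.0.

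To ask whether any of the factors opened without ANP32E, null was compared with WT. No factor had a TSS peak in null and not in WT, against 1.4% of protein-coding genes, and none had one in WT and not in null, against 1.89%. Peaks of the 4 lists that overlapped were then merged into 128522 sites, of which 38 lay in the gene regions of the factors. In all 4 lists 19 of the 38 were called, or 50% against 45.9% of all sites. In null and not in WT 5 were called, or 13.2% against 10.9%, and in WT and not in null 7, or 18.4% against 12.3%. The 5 sites of null lay at Neurod1, Pax6 (2 sites), Pou3f2 and Myt1l, at percentiles 3.44 to 31.6, and the 7 sites of WT at Neurog1, Pax6 (2 sites), Olig2, Pou3f2 and Myt1l (2 sites), at percentiles 3.01 to 33.0. The sites that differed were thus among the weaker peaks of their lists by rank of fold enrichment, in both directions. By -log10 p the Myt1l site of null, beyond the 3' end of the gene, ranked higher, at percentile 53.9, with 70 fragments at 13.7 times background.

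At the 25 sites that were called in both WT and null, the values over background were higher in null at all 25, with a median log2 ratio of 0.45 and a range of 0.21 to 1.12. Across all 66194 sites shared by these lists the median was 0.59 and 89.6% were above 0, so a positive ratio was general to this pair of lists. Relative to that median, 5 sites of the factors lay above and 20 below, and the interval included the median at 24 of them. The exception was the intronic site of Myt1l. The highest ratio, 1.12 (0.45 to 1.80), was at a weaker Myt1l site in an intron (chr12:29882972-29883722), with 35 fragments in WT and 44 in null.

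To ask the same of H2A.Z siRNA, that list was compared with NT siRNA. Olig2 had a TSS peak in H2A.Z siRNA and not in NT siRNA, as described above. No factor had one in NT siRNA and not in H2A.Z siRNA, against 0.483% of protein-coding genes. Of the 38 sites, 6 were called in H2A.Z siRNA and not in NT siRNA, or 15.8% against 20.7% of all sites, and they lay at Neurog2, Pax6 (3 sites), Pou3f2 and Myt1l, all at or below percentile 23.2. Another 3 were called in NT siRNA and not in H2A.Z siRNA, or 7.89% against 3.65%. These were at Sox1, Pou3f2 and Myt1l, with 17, 12 and 32 fragments in NT siRNA, and all 3 had been called in WT and null as well. This pattern, a call in WT, null and NT siRNA and none in H2A.Z siRNA, was singled out after its values were seen and was shown by 7.89% of the sites of the factors and by 0.531% of all sites.

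At the 20 sites called in both siRNA lists, the median log2 ratio of H2A.Z siRNA to NT siRNA was -0.29, with a range of -1.13 to 0.24, and 4 sites were above 0. The median over all shared sites was -0.27, and 24.8% of them were above 0. The interval included that median at 15 of the 20 sites. It lay below at 4, which were the coding peak of Neurog1, the strongest site of Pax6, a site of Pou3f2 11 kb downstream of the gene start with a ratio of -0.92 (-1.52 to -0.29), and the intronic site of Myt1l. It lay above at the site beyond the 3' end of Myt1l, with 0.24 (-0.19 to 0.70). NT siRNA was a single library, so the spread between libraries of that group is unknown.

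**Figure D4:**
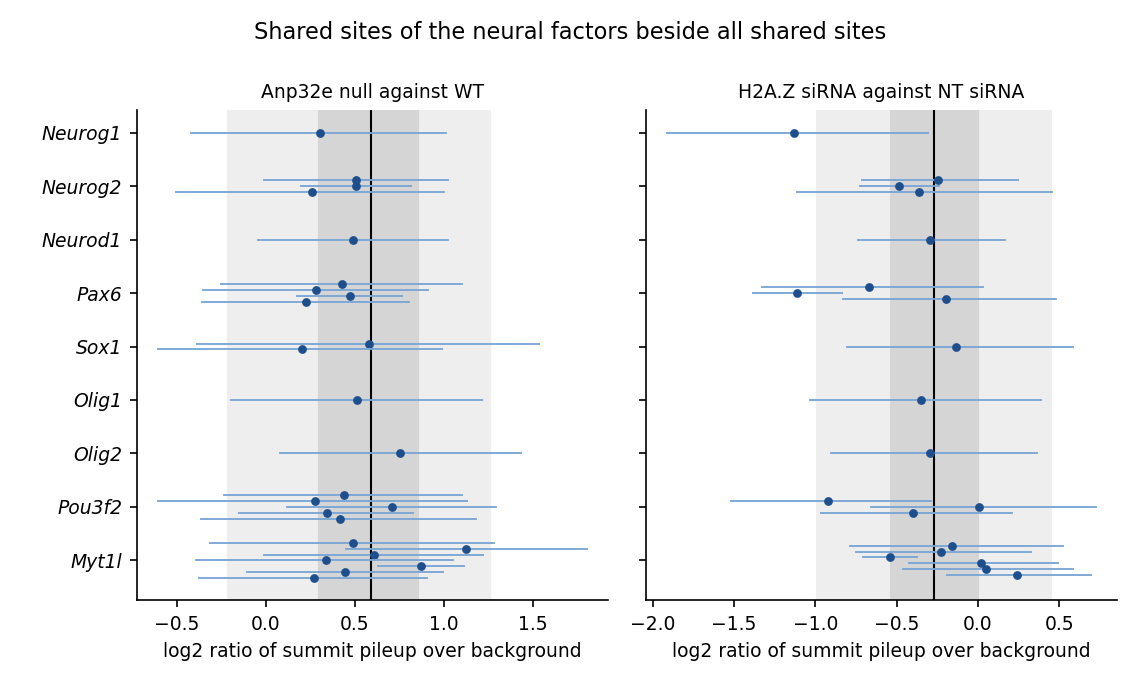
The log2 ratio of pileup over background at the sites of each factor called in both lists, for null against WT (25 sites) and H2A.Z siRNA against NT siRNA (20 sites), with lines for 95% intervals that cover counting error only. The black line is the median of all shared sites, 0.59 and -0.27, and the grey bands hold the middle 50% and 90% of them, so most factors lie inside the bands.

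The factors were also placed by sequence features that their choice did not use. Across protein-coding genes, TSS peaks followed the CpG content of the gene start, measured as observed over expected CpG in 2001 bp. In WT 17.6% of genes in the lowest of 4 equal bins had a TSS peak, 58.0% in the second, 94.5% in the third and 98.5% in the highest. Neurog1, Neurog2, Sox1, Olig1 and Pou3f2 fell in the highest bin, Neurod1, Pax6 and Olig2 in the third and Myt1l in the second. Sox1, with an observed over expected value of 0.719 at percentile 83.3 of all genes, was therefore among the small share of the highest bin with no TSS peak in WT. Olig2, with 0.64 at percentile 71.9, and Neurod1, with 0.516 at percentile 54.9, were among that of the third bin. The Neurod1 start lay near the median of all genes by this measure, and its GC content was 49.2%, at percentile 39.6. Neurog2 had the highest value, 0.86 at percentile 96.0, and Myt1l the lowest, 0.448 at percentile 47.3.

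**Figure D5:**
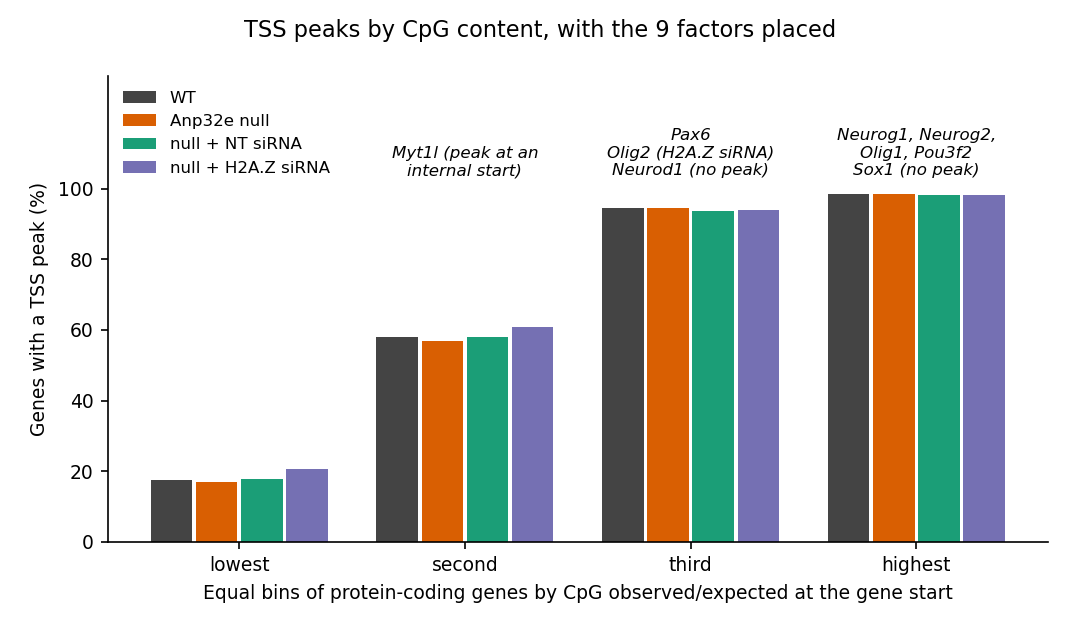
Share of protein-coding genes with a TSS peak (bars from 0, in percent) in 4 equal bins of CpG content at the gene start for each list, with the factors named above their bin. In the highest bin 98.5% of genes had a TSS peak in WT, and Sox1 did not.

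The strongest summit near the gene start lay downstream of it for 7 of 8 factors in each list and upstream for Pou3f2. Over all protein-coding genes with such a summit the median lay downstream as well, and the share that lay downstream was not computed. The side of the start alone therefore does not set the factors apart. The strongest peak with its summit within 3 kb of the gene start, a window set after the values were seen, had that summit in coding sequence for 6 of the 8 factors that had such a peak in each list. The genes were Neurog1, Neurog2, Neurod1, Sox1, Olig1 and Olig2, and the others were Pax6 and Pou3f2. For all protein-coding genes with such a peak the share was 11.5% in WT and 10.2% in null, 9.63% with NT siRNA and 8.98% with H2A.Z siRNA. Coding sequence in 1 uninterrupted block was shared by 7 of the 8 factors. Among genes of that kind the share in coding sequence was 23.6%, 21.6%, 21.6% and 19.1%. The median distance of the summit from the start over all genes was 60 bp downstream in WT, and the middle 50% lay between -102 and 262 bp. It was 46 bp downstream in null, 40 bp with NT siRNA and 42 bp with H2A.Z siRNA. In WT the 7 downstream summits of the factors lay 594 to 2470 bp from the start, beyond that middle 50%.

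Short DNA words that known factors bind were looked for on both strands in the 201 bp around the summits of the 38 sites. The E-box CAGATG, which proneural bHLH factors prefer, was in 5 sites and the E-box CAGCTG in 7, where 15.9% and 13.5% of all WT peaks held them. TGANTCA, the word of AP-1 factors, was in 4 sites against 27.8% of WT peaks, and GGAATG, that of TEAD factors, in 4 against 20%. The octamer ATGCAAAT of POU factors was in none, against 1.2%. In the 2001 bp around the gene start, CAGATG was found for 7 of the 9 factors, against 70.8% of protein-coding genes, and the octamer for 3, Neurog1, Sox1 and Myt1l, against 9.23%. The RE1 element bound by REST, given as TTCAGCACC and GGACAGCGC parted by 2 bases and searched with up to 3 of these 18 letters differing, was found around none of the 9 gene starts, against 0.793% of genes, and in 1 of the 38 sites over their whole length, the coding peak of Neurod1, against 0.25% of WT peaks. The Neurod1 match differed in 3 letters, the most allowed. Sites merged over 4 lists can be wider than single WT peaks, so these shares are not fully alike. The core of the CTCF motif, the letters CCA, AG and GGC parted each time by 2 free bases, was added after the Myt1l peaks had been seen. It was within the 201 bp of 3 of the 38 sites, all of them in introns of Myt1l and the strongest of the factors' peaks among them, against 4.88% of WT peaks. A word that matches is a description of the sequence and does not show that a factor binds there.

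Other genes of the neural programme were counted in the same way. Of 40 further neural transcription factors, 34 had a TSS peak in WT and 33 in null, 31 with NT siRNA and 34 with H2A.Z siRNA, against 67.2%, 66.7%, 66.8% and 68.4% of all protein-coding genes, which are also the shares to set beside the counts of the lists that follow. The pattern of the 6 open factors, a TSS peak in all lists, was shared by 30 of them, among them Atoh1, Atoh7, Bhlhe22 and Dlx1, and by 63.8% of all protein-coding genes. The pattern of Neurod1 and Sox1, no TSS peak in any list, was shared by 4, which were Myt1, Neurod4, Neurod6 and St18, and by 28.8% of all protein-coding genes. The pattern of Olig2, a TSS peak in H2A.Z siRNA alone, was shared by Neurod2, whose peak there held 171 fragments at 9.60 times background, and by 1.26% of all protein-coding genes. Neurog3 and Pou3f4 had a TSS peak in WT and not in null, at 3.28 and 2.94 times background, and Sox10, named after its values were seen, had one in null and not in WT at percentile 0.317. Besides Neurod2, Neurog3 and Olig3 had one in H2A.Z siRNA and not in NT siRNA, at 1.96 and 2.36 times background.

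The genes of 10 regulators that hold neural genes off outside neurons all had a TSS peak in each list, Rest among them, whose peak held 128 fragments in WT and 134 in null, 155 with NT siRNA and 869 with H2A.Z siRNA, or 14.5, 26.2, 39.9 and 48.8 times background. All of 10 fibroblast transcription factors, such as Twist1 and Snai2, also had one in each list. Their TSS peaks had a median percentile of 65.9 in WT, where those of the 6 factors with a TSS peak had 53.4 and those of the further neural factors 60.6.

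As a check of the cell type, TSS peaks were counted for markers. They were present for 9 of 10 fibroblast markers in each list (not for Lum) and for 8 of 10 neural markers in WT and 9 in the other lists. Neural markers had them nearly as often as fibroblast markers, and Stmn2 was the neural marker called in null and not in WT. The 3 epithelial markers had a TSS peak in each list, the 3 endothelial markers had one apart from Pecam1 in null, and of the 3 blood markers Cd68 had one in each list, Spi1 in H2A.Z siRNA alone and Ptprc in none. A TSS peak therefore did not separate the markers of these cell types, and it does not show that a gene is expressed.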

How the data were processed

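Primary MEFs were profiled by ATAC-seq. Per the methods, the authors aligned paired-end reads to mm10 with Bowtie2, cleared PCR duplicates using Picard, and used MACS2 on whole fragments for the peaks. The labels name 1 peak list for all libraries of a group, which is taken here as called on them together, and single libraries were not analysed here. The deposited lists give for each peak the fold enrichment at the summit, a ratio of the fragments piled up to those in the local background, 1 being added to each, the -log10 p-value and q-value, and the other column used, the summit offset in bp. Both the fold and the -log10 p-value as deposited fix the pileup and local background under the Poisson model, and the recovered pileups were whole numbers within 0.05 for 100% of peaks.

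Peaks on chromosomes 1 to 19, X and Y were kept: 84040 for WT and 82567 for null, 89272 with NT siRNA and 108409 with H2A.Z siRNA. The genome-wide backgrounds, 8.85, 5.12, 3.88 and 17.8 fragments, follow depth. Each pileup was divided by that background, with exact Poisson 95% intervals, and ratios between lists have exact conditional intervals. Both cover counting error only, and a summit is a selected maximum, which lies higher in shallow lists. Percentiles rank peaks by fold within a list. Overlap meant 1 bp or more. The genes and lists were chosen with earlier results of these data known. All 9 factors are named; from the other lists, up to 4 genes whose TSS call differed between compared lists are named, by fold, and up to 4 that share a factor's calls, in alphabetical order. The labels give replicate libraries without saying that they came from separate embryos or cultures. Analyses used Python 3.11.15 with NumPy 2.4.6, SciPy 1.17.1, pandas 2.3.3 and pysam 0.24.0, on GENCODE M21 genes and the GRCm38.p6 sequence of RefSeq, and the scripts were tested on simulated data. Alternatives changed the peak threshold, the ranking, the depth scaling and the windows.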

Additional observations from a re-analysis of the deposited data

How the results depend on the processing

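Of 136 recomputed counts, 110 stayed within 1.5 times the count reported and 26 moved. With the 20000 strongest peaks of each list, TSS peaks were found for 2 factors in WT, null and NT siRNA and for 1 in H2A.Z siRNA, gene-region peaks for 4, 4, 3 and 2, and the regions held 4, 4, 3 and 2 peaks. Under that limit 0 factors had a TSS peak in H2A.Z siRNA and not NT siRNA, and 1 had the reverse. The reverse count was also 1, Neurog1, with every list cut to an equal number of peaks and with pileups scaled to the shallowest list. In both of these settings Olig2 kept its TSS peak in H2A.Z siRNA and had none in NT siRNA. Requiring the summit inside the TSS window left 0 factors with a TSS peak in H2A.Z siRNA and not NT siRNA. A TSS window of 2 kb also gave 0, and gave 1 factor, Neurod1, with a TSS peak in WT and not null; it called 9 factors in WT, against 69.6% of protein-coding genes, and 8 in each other list, against 69% to 70.7%, Sox1 and Olig2 in all of them. The gene body alone held 19 peaks in WT, 20 in null and 17 in H2A.Z siRNA, and a flank of 50 kb gave 52, 49, 37 and 42 in the order WT, null, NT siRNA, H2A.Z siRNA, by construction of narrower or wider regions. With ranks by -log10 p, 30 of 36 percentiles of the strongest peaks stayed within 10 points, and the largest shift was 15.1. The cause of the other shifts was not tested. No paired analysis was possible because a group has 1 peak list for all its libraries, and for that reason no library could be left out in turn. The siRNA comparison rests on 1 NT siRNA library, the shallowest list.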
